A study of Mus with 50 samples.

Results

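The inducible acute phase proteins are plasma proteins whose transcripts the liver raises in inflammation, infection and tissue injury. Cytokines of the Il6 family act on hepatocytes through the shared receptor chain Il6st and the transcription factor Stat3, while Il1b and Tnf act through NF-kappaB and C/EBP factors, and both routes meet on many acute phase promoters. The gene products carry lipids, bind bacterial products and siderophores, or inhibit proteases. The 10 listed genes were the serum amyloids Saa1, Saa2 and Saa3, the orosomucoids Orm1, Orm2 and Orm3, Lcn2, Serpina3n, Lbp and Itih4. Each was read from the probe set that carried its symbol alone, and from the one with the highest median where there were several. This gave values for 9 of the 10 listed genes, among 22180 named genes in all. Saa1 was present only on a probe set shared with Saa2, so no value is given for it.

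The data are liver RNA of 50 female mice from a C57xFVB backcross, with 1 array per mouse. All mice carried MMTV-Neu, a transgene of the Neu proto-oncogene under a retroviral promoter that is active mainly in mammary epithelium, and all are labelled with breast cancer. By the series design the mice had extreme grades of ageing, but the labels do not give the grade or the age of any mouse, so the 50 livers form 1 group that pools both extremes. Mice are named by the animal number in their titles. Every result is therefore a spread or a covariation over livers, and a single liver's value has no replicate error of its own.

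Signals are log2 values after RMA, a method that corrects background, equalises the distribution of the arrays and summarises probes, so a difference of 1 is a doubling. Array medians lay between 3.27 and 3.34. The labelled tissue was borne out by hepatocyte markers, with medians of 13.46 for albumin (Alb) and 12.48 for Apoa2. All 8 listed markers had medians at or above the median level of all named genes. The lowest median among them was that of Ass1 (5.71), which ran from 2.99 to 7.08. By a low median correlation with the others 4 livers stood apart: animals 64 (0.79), 235 (0.86), 84 (0.90) and 87 (0.93). Animal 87 lay close to the next lowest, animals 10 and 161 (0.94 each). On immune marker scores 3 livers were far out (animals 10, 87 and 235). A score is the mean of a list's genes after each is standardised over the livers. Fewer cells of a type and less RNA per cell cannot be told apart in such bulk tissue.

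Saa2, a serum amyloid that travels on high-density lipoprotein, spanned the widest range of the 9 genes. Its log2 signal was 4.28 at the lowest, 7.69 at the median and 12.90 at the highest, a 393-fold range. Its SD of 1.99 was the third largest among the 11090 genes at or above the median level, whose own SDs had a median of 0.28. The livers formed no separate low and high clusters for Saa2, and 7 of them lay more than 8-fold above the median. Animals 179 (12.90), 142 (12.39) and 253 (11.63) had the highest signals, and animals 187 (4.28), 24 (4.79) and 64 (4.83) the lowest. The next gene of the family, Saa3, is made in mice by macrophages and other cells outside the liver as well as by hepatocytes. Its signal was 4.07 at the lowest, 6.005 at the median and 10.71 at the highest, with an SD of 1.15. Most of that range came from few livers: the interquartile range ran from 5.45 to 6.53, while animal 179 reached 10.71, animal 235 reached 9.18 and animal 87 reached 8.19.

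The orosomucoids, which bind drugs and other small molecules in plasma, lie side by side on the chromosome in the order Orm1, Orm3, Orm2 but differed in spread. Orm2 ran from 4.01 through a median of 7.71 to 12.37, a 330.5-fold range with an SD of 1.63. Orm3 ran from 3.27 through a median of 6.78 to 9.84, with an SD of 1.36, and 2 livers lay below the median level of all named genes. Orm1 ran from 9.23 through a median of 11.13 to 12.62, with an SD of 0.53, so animals 179 and 24, which were highest and lowest for both, differed 330.5-fold in Orm2 and 10.45-fold in Orm1. These genes are close relatives, and so are Saa1 and Saa2. The files do not give probe sequences, so cross-hybridisation within each family was not tested and single-gene values of Saa2 and of the orosomucoids are uncertain to that extent.

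Lcn2 encodes lipocalin-2, which withholds bacterial siderophores and is made by hepatocytes and by neutrophils. Its signal ran from 5.26 through a median of 8.57 to 11.71, with an SD of 1.31. The lowest liver was animal 24, and the highest were animals 179 (11.71), 161 (11.15) and 257 (10.80). Serpina3n, a secreted inhibitor of serine proteases, ran from 10.03 through a median of 11.001 to 12.44, with an SD of 0.52. Lbp, which hands bacterial lipopolysaccharide to Cd14, ran from 8.78 through a median of 9.87 to 11.07, with an SD of 0.46. Both had a range of about the same size, 5.32-fold for Serpina3n and 4.88-fold for Lbp. Itih4, an inter-alpha-trypsin inhibitor heavy chain, varied least, from 10.72 through a median of 12.09 to 12.60. Its SD of 0.30 stood at rank 4947 of the 11090 genes, and without the 4 livers that stood apart it was 0.19. The lowest 3 Itih4 signals belonged to animals 64 (10.72), 87 (11.45) and 84 (11.48), which are among those 4.

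**Figure D1:**
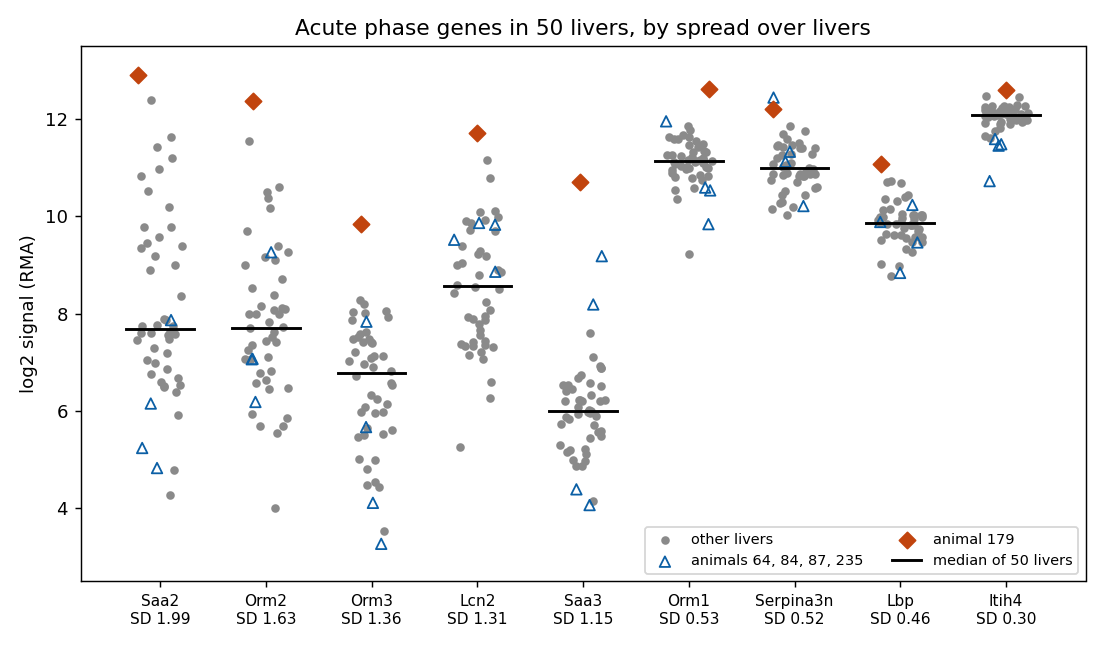
Log2 signal of the 9 measured acute phase genes (horizontal axis, ordered by SD) in each of 50 livers (points), with the median as a bar, animal 179 as a filled diamond and the 4 livers that stood apart as open triangles. Saa2 and Orm2 spread over more than 8 log2 units, while Itih4 stays between 10.72 and 12.60. Heights of different genes are not amounts and are not compared.

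By SD the order was Saa2, Orm2, Orm3, Lcn2 and Saa3, at ranks 3, 12, 25, 34 and 65 of 11090, followed by Orm1 (rank 1208), Serpina3n (rank 1288), Lbp (rank 1712) and Itih4. The differences between neighbours in this order were not tested, and Orm1 (0.53) and Serpina3n (0.52) differed by 0.01 log2. The 4 genes with the smallest SD all had median signals of at least 9.87, and the part of signal level in the order was not tested.

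One liver was high in nearly the whole group. Animal 179 had the highest signal of 8 of the 9 genes and the second highest Serpina3n (12.21), where animal 84 was higher (12.44). Animal 284 was also among the top 10 livers for all 9 genes, with Saa2 at 11.19 and Lcn2 at 10.10. At the other end, animal 24 was among the bottom 10 for 8 genes and had the lowest Orm1, Orm2 and Lcn2, while its Saa3 (5.74) lay near the median. Animal 64 was among the bottom 10 for 8 genes, but its Lcn2 of 8.86 was above the median. Other livers split the group. Animal 161 had the second highest Lcn2 (11.15) and the third highest Lbp (10.70), yet its Saa2 (5.91) and Saa3 (4.15) were among the 5 lowest. Animal 84 was among the top 10 for the 3 orosomucoids, Lcn2, Serpina3n and Lbp, and among the bottom 10 for Saa3 and Itih4. Animal 142 had the second highest Saa2, while its Saa3 (5.997) was close to the median.

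**Figure D2:**
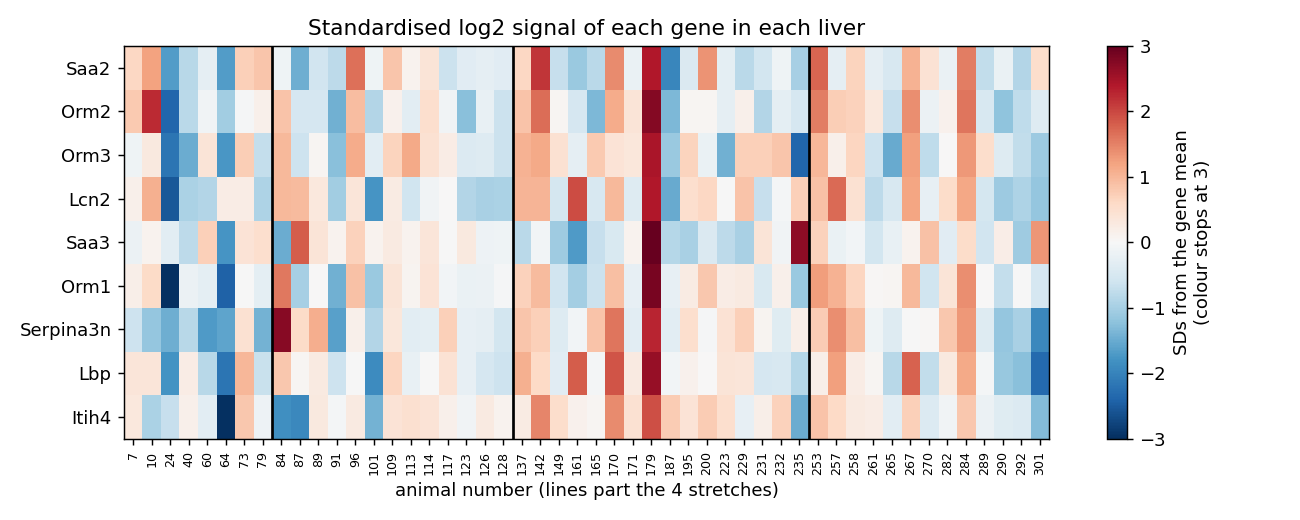
Each gene's log2 signal in each liver, in SDs from that gene's mean over 50 livers (red above, blue below), with livers in order of animal number. Animal 179 is red in every gene, animal 24 is blue in all genes with only a pale blue for Saa3, and animals 84, 87, 161 and 235 mix red and blue.

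The group mostly moved together. Each of the 22179 other genes was fitted on the level of each acute phase gene in turn with limma, and a pair was called when both of its fits had a Benjamini-Hochberg adjusted p under 0.05. Of 36 pairs, 20 were called, all of them positive, and 16 were not. Pearson's r ranged from 0.08 to 0.82 with a median of 0.55, and Spearman's rho had a median of 0.56. The share of all genes called higher was 0.0496% with Saa2, 0.104% with Orm2, 0.464% with Orm3, 0.924% with Orm1, 1.15% with Lbp, 2.34% with Serpina3n, 1.58% with Lcn2, 10.7% with Itih4 and 0.0% with Saa3, where 1020 of 22179 were higher at an unadjusted p under 0.05. Of the 36 pairs, 16 had the smallest p that 100000 two-sided permutations can give, 1e-05. In 25 pairs r was positive within all 4 stretches of animal numbers in which the livers fall.

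Orosomucoids took part in most of the called pairs. Orm1 and Orm3 were each called with 7 of 8 partners, Lbp with 6, Orm2 and Lcn2 with 5, Serpina3n with 4, Saa2 and Itih4 with 3, and Saa3 with none. All 7 calls of Orm1 held in the 11 alternatives, while 4 of the 7 calls of Orm3 were each lost in at least 1 of them. Without animal 179 Orm3 lost its calls with Lcn2 (r = 0.47, limma adjusted p = 0.0671) and Itih4 (r = 0.48, adjusted p = 0.0689). Orm1 and Orm2 had the closest relation (r = 0.82, rho = 0.82, permutation p = 1e-05 for both, n = 50). It was 0.76 without the 2 livers farthest from the Orm1 median and 0.85, 0.85, 0.85 and 0.90 within the stretches. The adjusted p of the limma fits was 8.53e-10 or lower.

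Saa2 followed the orosomucoids. Its r was 0.82 with Orm2 (rho = 0.78, permutation p = 1e-05 for both, limma adjusted p = 1.26e-09, n = 50). This relation stood at 0.77 without the 2 livers farthest from the Saa2 median and at 0.88, 0.63, 0.88 and 0.79 within the stretches. With Orm1 it was 0.73 and with Orm3 0.62, and the slopes were 0.67 ± 0.07 log2 of Orm2, 0.43 ± 0.07 of Orm3 and 0.19 ± 0.03 of Orm1 per log2 of Saa2 (SE). The call with Orm3 was lost without the 2 livers farthest from the median (limma adjusted p = 0.113). Saa2 was not called with Lcn2 (r = 0.47, limma adjusted p = 0.18), Lbp (r = 0.46, adjusted p = 0.277) or Serpina3n (r = 0.34, adjusted p = 0.438). Nor was it called with Itih4 (r = 0.52, limma adjusted p = 0.108). Each p is the larger of the pair's 2 fits. In the other fit, of Saa2 on the partner's level, limma adjusted p was 0.0179, 0.0382, 0.155 and 0.000713 in that order. The permutation p of r was 0.00041, 0.00079, 0.0163 and 7e-05. Animals 161, 64, 87 and 235 had low Saa2, between 4.83 and 6.15, with Lcn2 between 8.86 and 11.15. Without the 4 livers that stood apart, Saa2 and Lcn2 were called (r = 0.59, limma adjusted p = 0.0292).

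Lcn2, Lbp and Serpina3n were called with each other, and Orm1 and Orm3 were called with all 3 of them. Lcn2 and Lbp had an r of 0.77 (rho = 0.77, permutation p = 1e-05 for both, limma adjusted p = 7.12e-07, n = 50), which was 0.71 without the 2 livers farthest from the Lcn2 median and 0.49, 0.86, 0.75 and 0.88 within the stretches. Serpina3n and Lbp had an r of 0.74, and Lcn2 and Serpina3n 0.69. The r of Orm1 was of similar size, 0.71 with Lbp, 0.67 with Serpina3n and 0.63 with Lcn2. Orm2 was called with Lcn2 (r = 0.74) and Lbp (r = 0.67), but its relation with Serpina3n missed the threshold (r = 0.52, limma adjusted p = 0.0553) and passed it in 6 of the 11 alternatives. Itih4 was called with Orm1 (r = 0.59), Orm3 (r = 0.53) and Lbp (r = 0.63), and not with Lcn2 (r = 0.22). Without the 4 livers that stood apart Itih4 was called with Lcn2 (r = 0.58, limma adjusted p = 0.00315) and with Serpina3n (r = 0.69, adjusted p = 5.81e-05) as well.

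Saa3 was called with none of the others. Its r with the other 8 genes ran from 0.08 with Lbp to 0.39 with Saa2. With Lcn2, r was 0.17 over the 50 livers and -0.11 without the 2 livers farthest from the Saa3 median, animals 179 and 235. The pair of Saa2 and Saa3 (r = 0.39, rho = 0.43, limma adjusted p = 0.371) was called without the 4 livers that stood apart (r = 0.58, adjusted p = 0.0338) and without the 3 that were far out on immune scores (r = 0.60, adjusted p = 0.0188). In animals 235 and 87 high Saa3 went with low Saa2 (6.15 and 5.24). Animal 235 had the highest Kupffer cell score of all livers (3.802) and the highest monocyte score (2.64), and animal 87 had a monocyte score of 2.37. Animal 179, where Saa3 was highest, had a Kupffer cell score of -0.74 and a monocyte score of -0.05. The part of macrophages in the Saa3 signal was not tested.

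**Figure D3:**
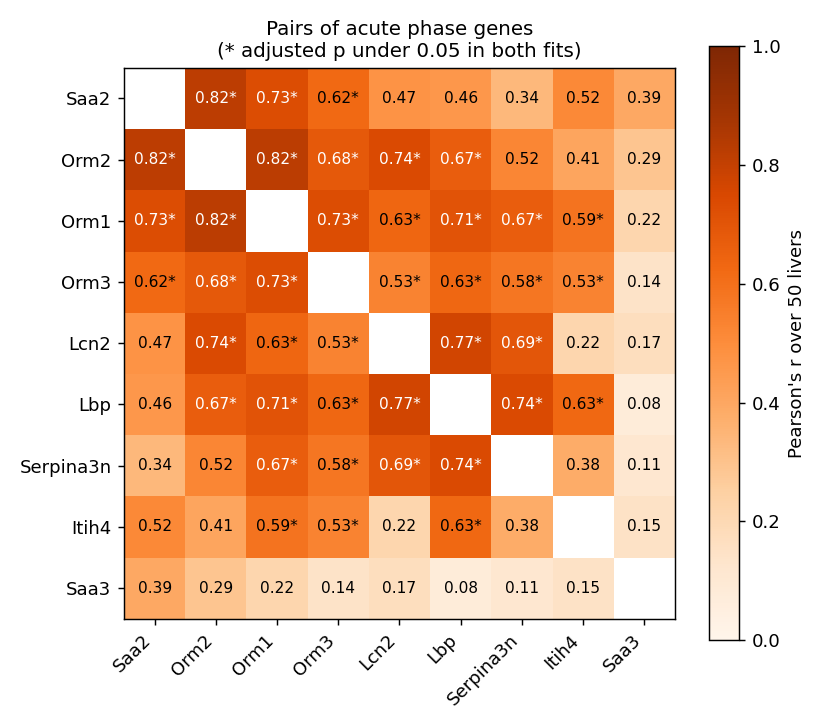
Pearson's r over 50 livers for the 36 pairs of measured acute phase genes (both axes), with an asterisk where both limma fits had an adjusted p under 0.05. The block from Orm2 to Lbp is dark, Saa2 is dark only against the orosomucoids, and the Saa3 line is pale throughout, from 0.08 to 0.39.

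No relation of the acute phase genes to the animal number, the only number that tells the mice apart in the labels, passed the test. None of the 9 was called in a limma fit of all genes on it, where 3.52% of all genes were called, and none had an unadjusted p under 0.05. The smallest adjusted p among the 9 was 0.328. Median Saa2 was 8.48, 7.61, 7.43 and 7.77 in animals 7 to 79, 84 to 128, 137 to 235 and 253 to 301. Median Lcn2 was 8.11, 8.43, 9.32 and 8.25 in the same stretches, which overlapped widely. Median Serpina3n was lower in animals 7 to 79 (10.37) than in the later stretches (10.90, 11.19 and 11.03). The fit on the animal number is linear, and differences between stretches were not tested. What the animal number stands for is not given.

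With Saa2, 11 genes were called and all were higher, 0.0496% of the 22179 tested. They were Orm2, Orm1, Orm3, Prg4, Fgl1, Gas6, Lrg1, Acp7, Steap4, Crybb3 and Serpina10, of which Crybb3 and Serpina10 were named after their values were seen. Prg4, a secreted mucin-like glycoprotein known as lubricin, was closest outside the group (r = 0.74, rho = 0.70, permutation p = 1e-05 for both, limma adjusted p = 2.1e-06, n = 50). It ran from 6.60 through a median of 8.47 to 10.53, and r was 0.67 without the 2 farthest livers and 0.79, 0.53, 0.82 and 0.90 within the stretches. Fgl1 (r = 0.58) and Gas6 (r = 0.57) each lost the call in some alternatives, and Acp7 (r = 0.59), whose signal stayed between 2.47 and 2.98, lost it in 8. The fibrinogen chain Fga (r = 0.57) missed the threshold at an adjusted p of 0.0511. No gene was called lower with Saa2 in this limma fit, where 1109 were lower at an unadjusted p under 0.05. Ranks gave 5 genes called, all of them higher. The lowest r were those of Cluap1 (-0.56, limma adjusted p = 0.0553), Srsf2, Ddx6, Gnrh1 and Zcchc9, none of them called in this fit. Cluap1 was called lower in 2 alternatives. These were the mean of all probe sets of a gene (limma adjusted p = 0.0482) and genes at or above the median level (adjusted p = 0.029).

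Outside the 9 acute phase genes, those with the highest r differed between members. For Orm1 they were the fibrinogen chains Fgg (r = 0.83), Fga (0.82) and Fgb (0.76), the kininogen Kng2 (0.78) and Fgl1 (0.77). For Orm2 they were Lrg1, a secreted leucine-rich glycoprotein (0.72), haptoglobin Hp (0.69), Steap4 (0.67), Tmem176a (0.64) and Fgl1 (0.63). For Orm3 they were Prg4, Lrg1, the sialic acid enzyme Gne, the receptor chain Il6st and the citrate transporter Slc13a5, all at 0.64. For Lcn2 they were Lrg1 (0.74), the metallothioneins Mt1 (0.74) and Mt2 (0.72), hemopexin Hpx (0.71) and Hp (0.70). Serpina3n had Pxk (0.77), Hecw2 (0.77), the ceramidase Acer2 (0.76), the receptor Il1r1 (0.75) and Stat3 (0.75). Lbp had Lrg1 (0.83), Stat3 (0.79), Hp (0.79), Itih3 (0.78) and the zinc transporter Slc39a14 (0.78). All these genes were called, Lrg1 was among the 5 nearest of 4 members, and Fgl1 and Hp of 3 each. These r were chosen as the highest outside the 9 genes and are a description.

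**Figure D4:**
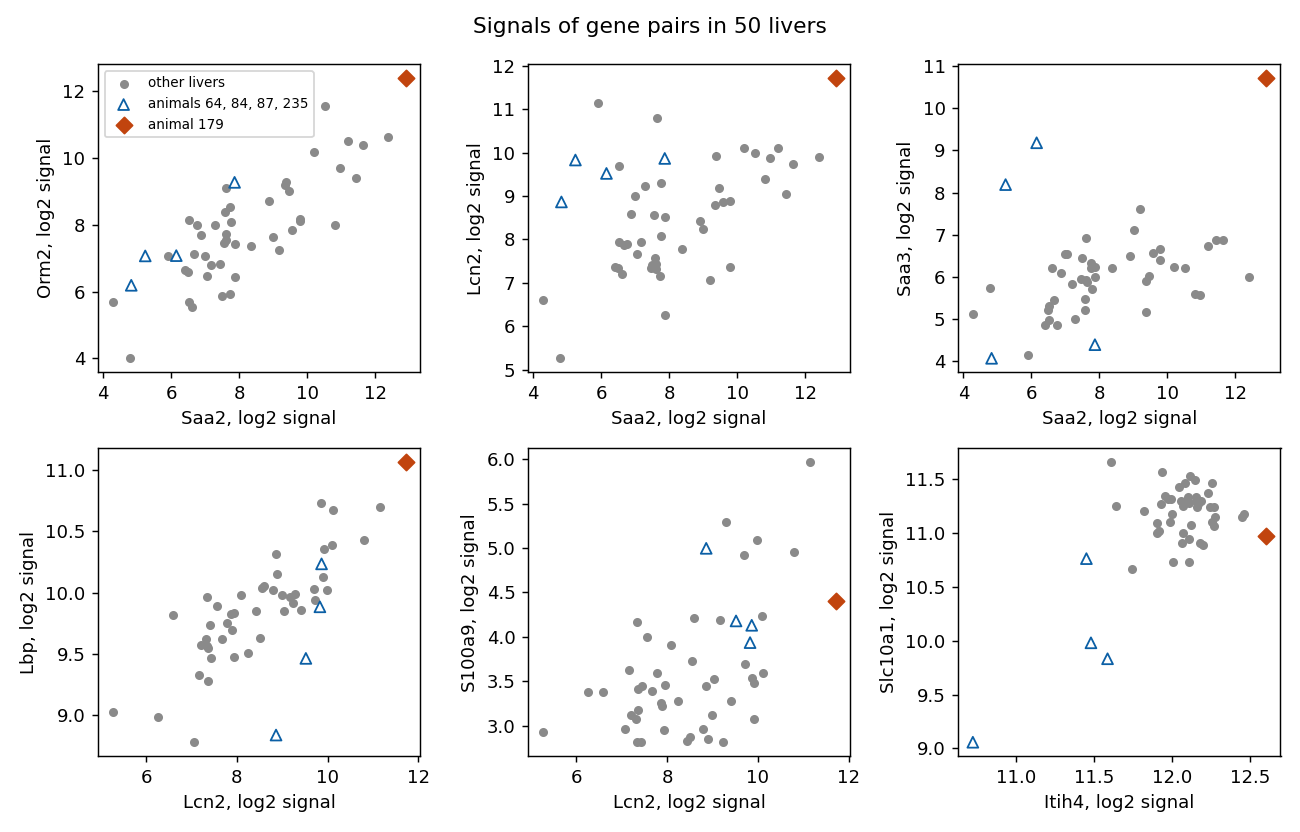
Log2 signals of 6 gene pairs in 50 livers (points), with animal 179 as a filled diamond and the 4 livers that stood apart as open triangles. Saa2 and Orm2 rise together (r = 0.82), Saa2 and Lcn2 part in animals 64, 87, 161 and 235, and high Saa3 in animals 87 and 235 goes with low Saa2. Itih4 and Slc10a1 are both low in the 4 livers that stood apart.

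Among pathway genes, lists of cytokines, receptors, transcription factors, inhibitors and other acute phase proteins were set against Saa2, Lcn2, Saa3 and Itih4. With Saa2, 3 of 17 other positive acute phase proteins were called higher (Fgl1, Lrg1 and Steap4) and none lower, beside 0.0496% of all genes called higher. At an unadjusted p under 0.05 the number was 13 of 17, beside 1157 of 22179 genes higher and 1109 lower. The median r of the 17 was 0.43, against 0.01 over all genes. None of 12 receptors, 10 kinases and transcription factors, 8 feedback inhibitors or 11 cytokines was called with Saa2, and Il6st (r = 0.40), Stat3 (r = 0.36) and Socs3 (r = 0.35) came closest in their lists. By limma 2, 1, 3 and 1 genes of these lists had an unadjusted p under 0.05, all of them higher. The count of 3 called was 1 without animal 179 and 0 without the 4 livers that stood apart. Of all genes, 6 and 7 of 22179 were called in these settings. At an unadjusted p under 0.05, 11 and 14 of the 17 were higher in them. The share of all genes at that threshold is not given for these settings.

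With Lcn2, 12 of 17 other positive acute phase proteins were called higher and none lower, against 1.58% of all genes called higher and 1.93% lower. Besides Lrg1, Mt1, Mt2, Hpx and Hp these were Apcs, Itih3, Steap4, Fgb, Fgg, Fgl1 and A2m, while Cp, Fga, Crp, Hamp and Cfb were not called. The median r of the 17 was 0.56, against -0.0046 over all genes. Of 12 receptors and sensors 4 were called higher: Osmr, a receptor chain for oncostatin M (r = 0.70, rho = 0.67, limma adjusted p = 1.57e-05), Cd14 (r = 0.57), Il1r1 (r = 0.55) and Myd88 (r = 0.50). The list was not uniform: at an unadjusted p under 0.05, 8 of the 12 were higher and 2 lower. Over all genes, 1795 of 22179 were higher with Lcn2 and 2046 lower at that threshold. Without the 4 livers that stood apart, 6 receptors and sensors were called higher and 1 lower, beside 487 and 630 of 22179 genes. Among 10 kinases and transcription factors Cebpd (r = 0.55), Nfkbiz (r = 0.52) and Stat3 (r = 0.49) were called. Of 8 feedback inhibitors Socs3, which restrains Stat3 signalling, was called (r = 0.58, rho = 0.59, limma adjusted p = 0.00205), as were Bcl3 and Il1rn. Without animal 179, 1 feedback inhibitor was called, beside 383 of 22179 genes higher and 449 lower. With immune scores as covariates 2 receptors, 1 of the kinases and transcription factors and 1 feedback inhibitor were called. Of all genes, 55 of 22179 were called higher and 7 lower there. None of 11 inducing cytokines was called, with 2 higher at an unadjusted p under 0.05, and the Il6 signal stayed between 2.28 and 2.82. Only 3 of the 11 cytokines reached the median level of all genes. None of 9 negative acute phase proteins was called, with 1 higher and 1 lower at an unadjusted p under 0.05. Of 11 drug and bile enzymes and transporters none was called and 6 were lower at an unadjusted p under 0.05, led by Cyp2c29 (r = -0.41, limma adjusted p = 0.059). Without the 4 livers that stood apart 4 of the 11 were called lower, beside 630 of 22179 genes.

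Neutrophil markers moved with Lcn2. Of 12 neutrophil genes 10 were called higher and none lower, while 0 of 12 were called with Saa2, where none had an unadjusted p under 0.05 and the immune covariates also gave 0. Signals were low: 3 of the 12 reached the median level of all genes, and the neutrophil score ran from -0.89 to 2.41 with a median of -0.34. S100a9, a calcium-binding protein abundant in neutrophils, ran from 2.81 through a median of 3.45 to 5.97 (r with Lcn2 = 0.55, rho = 0.51, limma adjusted p = 0.0031). For 7 of the 12, among them S100a8, Mpo and Retnlg, the livers fell into separate clusters, so no r over all livers is given. In the 10 livers of the upper S100a8 cluster Lcn2 ran from 7.34 to 11.71, and in the 40 others from 5.26 to 10.11. Within these clusters r of S100a8 with Lcn2 was 0.21 in the upper and 0.41 in the lower. Animal 161 had the highest neutrophil score of all livers, and it had the second highest Lcn2 with low Saa2. With neutrophil, Kupffer cell and monocyte scores as covariates, 0 of 12 neutrophil genes were called with Lcn2, the score being made of these same genes, and none had an unadjusted p under 0.05. Under the same covariates 12 of 17 other positive acute phase proteins were called, and the number of all genes called with Lcn2 was 62, against 778 without covariates. Of the other cell type lists, 2 of 8 monocyte markers (Chil3 and Itgam), 1 of 7 endothelial markers (Pecam1) and 1 of 5 cholangiocyte markers (Sox9) were called higher with Lcn2. The endothelial count was 3 without animal 179 and 2 without the 4 livers that stood apart. None of 10 Kupffer cell, 8 stellate cell and fibroblast or 6 lymphocyte markers was, with 1, 3 and 0 higher at an unadjusted p under 0.05.

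Saa3 gave no call in any list over the 50 livers. By limma 0.0% of all genes were called with it, although 1827 of 22179 (8.24%) had an unadjusted p under 0.05 and the smallest adjusted p was 0.0559. Ranks gave 2 genes called. The highest r were those of the channel gene Hcn4 (0.57), Psg21 (0.55), the chemokine Ccl6 (0.53), Smpdl3b (0.53) and the lipoxygenase Alox15 (0.52). Their rho was 0.32, 0.60, 0.31, 0.36 and 0.26 in that order. Without the 4 livers that stood apart their r was 0.56, 0.53, 0.34, 0.27 and 0.21. Median signals of Hcn4 (2.36), Psg21 (2.69) and Alox15 (2.88) lay below the median level of all named genes (3.61). The number of calls depended on which livers were used. Without animal 179, 261 of 22179 genes were called, 198 higher and 63 lower. Among them were Smpdl3b (r = 0.66, limma adjusted p = 0.0016), Alox15 (r = 0.61), Ccl6 (r = 0.54) and Psg21 (r = 0.49). Without the 2 livers farthest from the Saa3 median, animals 179 and 235, 442 genes were called. Leaving out the 4 livers that stood apart gave 19 calls, and leaving out the 3 far out on immune scores gave 27. No Kupffer cell or monocyte marker was called over the 50 livers, with 1 of 10 and 3 of 8 higher at an unadjusted p under 0.05. Of all genes, 1020 of 22179 were higher at that threshold. The highest r in the Kupffer cell and monocyte lists were 0.28 for Vsig4 and 0.34 for Trem2. Without the 4 livers that stood apart they were -0.12 and -0.03. Without animal 179 limma again called 0 of 10 Kupffer cell and 0 of 8 monocyte markers. At an unadjusted p under 0.05, 9 and 4 of them were higher. It called 3 of 6 lymphocyte markers higher, beside 198 of 22179 genes. The share of all genes at the unadjusted threshold is not given for this setting. With the 4 livers that stood apart left out, none of these 3 lists had a marker called or higher at an unadjusted p under 0.05.

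Itih4 had the most related genes of the 9, and the number depended on the livers that stood apart. With it 10.7% of all genes were called higher and 13.2% lower, 5307 in all. Without animals 64, 84, 87 and 235, 186 of 22179 were called higher and 54 lower, 240 in all. The nearest genes were plasma proteins of the hepatocyte: vitronectin Vtn (r = 0.93), Habp2 (0.88), Apon (0.87), Ambp (0.86) and complement factor Cfb (0.86). Without the 4 livers these r stood between 0.63 and 0.84. Of 17 other positive acute phase proteins 14 were called higher, and 15 without the 4 livers. The other hepatocyte lists did not keep their counts, and neither did all genes, of which 186 of 22179 were higher without the 4 livers. Negative acute phase proteins were higher in 7 of 9 over the 50 livers and in 1 without the 4. Drug and bile genes were higher in 8 of 11 and then in none, and hepatocyte markers in 5 of 8 and then in none. Without the 4 livers, at an unadjusted p under 0.05, 0 drug and bile genes were higher and 3 lower. Of the hepatocyte markers 1 was higher and 0 were lower at that threshold. The share of all genes at that threshold is not given for this setting. Over the 50 livers the median r with Itih4 was 0.61 for the positive acute phase proteins, 0.48 for the negative ones, 0.57 for the drug and bile genes and 0.05 for all genes. Of 9 measured relatives of the families, 3 were called higher, Saa4 (r = 0.79), Itih1 (r = 0.76) and Itih2 (r = 0.63). Without the 4 livers their r were 0.59, 0.42 and 0.07. Monocyte markers were called lower in 3 of 8, led by Ccr2 (r = -0.54, and -0.20 without the 4 livers). Neutrophil markers were called lower in 2 of 12 (16.7%), near the 13.2% of all genes. Without the 4 livers 0 markers of either list were called lower. Igf1 had an r of 0.74 over all livers and 0.39 without the 4, and the bile acid transporter Slc10a1 0.64 and -0.09. Cfb, Crp, Fga and Fgg, by contrast, had r of 0.86, 0.79, 0.76 and 0.74 over all livers and 0.63, 0.74, 0.72 and 0.78 without the 4. The hepatocyte score was lowest in animal 64 (-3.90), which also had the lowest Itih4. The part of hepatocyte content in the Itih4 signal was not tested.

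**Figure D5:**
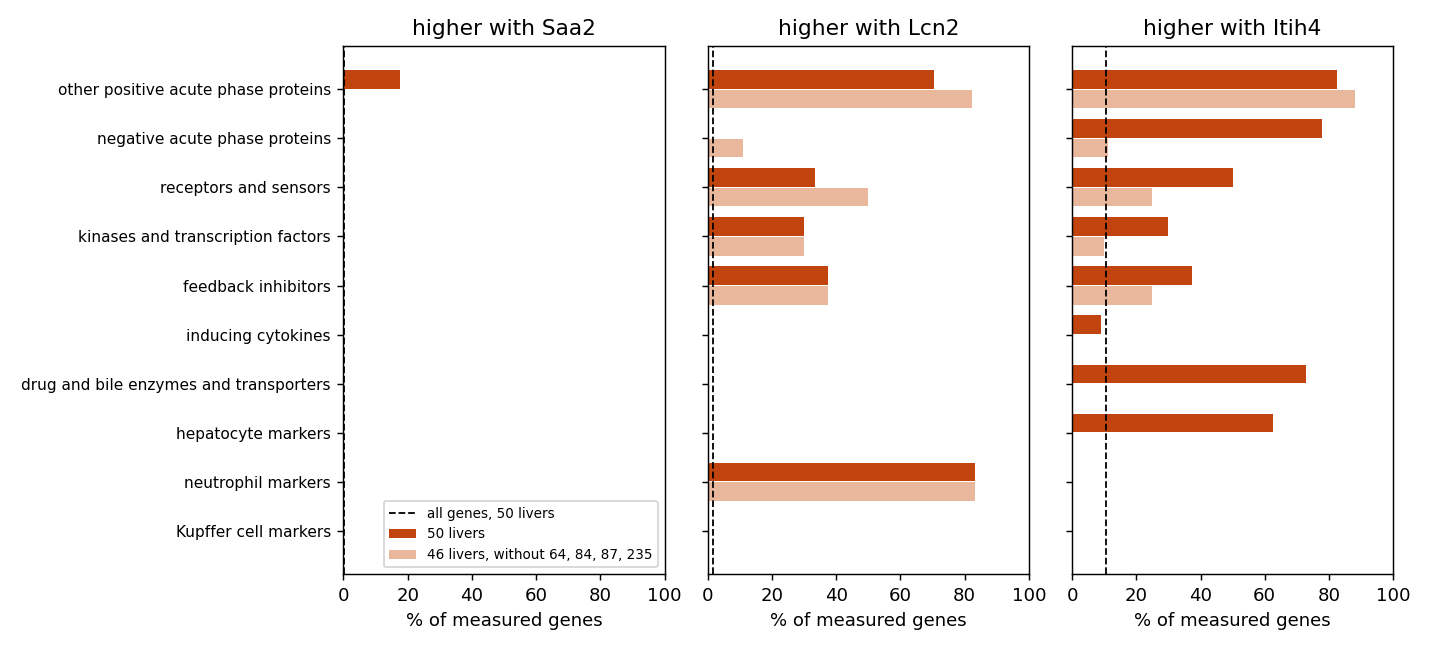
Share of each list's measured genes called higher with Saa2, Lcn2 and Itih4 (limma, adjusted p under 0.05). Dark bars are over 50 livers and light bars are without the 4 that stood apart. The dashed line is the share of all genes over 50 livers and serves the dark bars only. Without the 4 livers, 7, 487 and 186 of 22179 genes were called higher with Saa2, Lcn2 and Itih4. Other positive acute phase proteins are called with Lcn2 and Itih4 in both sets of livers, neutrophil markers are called with Lcn2, and the negative acute phase, drug and hepatocyte bars of Itih4 shrink without the 4 livers.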

How the data were processed

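The authors' deposited signals are on the log2 scale. RMA and Affymetrix Expression Console 1.4.1 are named in the submitters' processing notes. Per the labels, each array took 100 ng of total RNA. The labels name liver, while the extraction protocol speaks of purified cells. Of 41345 probe sets, 23521 carried 1 gene symbol, 1814 several and 16010 none in the platform annotation, and those with several named no gene. All value columns matched a mouse, and no 2 arrays were identical. The number of arrays limits the precision.

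All 22180 genes were fitted with limma 3.58.1 in R 4.3.3 (lmFit, eBayes with trend) on the level of each member and on the animal number, with Benjamini-Hochberg adjustment over all genes. Pearson and Spearman correlations had 100000 two-sided permutations (Python 3.11.15, scipy 1.17.1). The design planned all pairs of the 10 listed genes; Saa1 has no probe set of its own, which left 36. The ranks alternative used plain t statistics on ranks, without moderation. A gene's livers counted as separate clusters by a normal mixture with 2 components (BIC gain above 10, distance at least 4 SD and 0.5 log2, at least 5 livers in each). Livers that stood apart had a median correlation over 11090 genes that was below the lower quartile by over 3 interquartile ranges. The 4 stretches of animal numbers came from an earlier analysis of these data. Neighbouring genes were read from RefSeq (GRCm38.p6).

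Named were the members, the 5 genes with the highest r with each member, the 5 lowest with Saa2, and up to 4 genes per list with the largest r; called genes beyond these are listed to account for a count. The members, lists and alternatives were chosen with earlier results of these data known. In data simulated for the fit on Saa2 over 22179 genes, 34.5%, 85.5% and 96.5% of 200 changed genes were recovered at slopes of 0.05, 0.1 and 0.2. Of the calls 4.17%, 5% and 3.02% were false. Each gene was simulated with its own mean and SD and independently of the others. These rates therefore need not hold for the real livers, where genes vary together.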

Additional observations from a re-analysis of the deposited data

How the results depend on the processing

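The 20 called pairs numbered 18 to 25 under 11 alternatives, and 16 of the 20 kept their call in each of them. Those that did not were Orm3 with Itih4, with Lcn2 and with Serpina3n, and Saa2 with Orm3. No called pair changed the sign of its r. The r of Saa3, in no called pair, turned negative with 6 of the other genes without animal 179, with 3 without the 2 farthest livers and with 2 on ranks. Of 64 list genes called with Itih4, 15 changed the sign of r without the 4 livers that stood apart. Counts over all genes were 11 with Saa2, 0 with Saa3, 778 with Lcn2 and 5307 with Itih4, and the lists gave 3 positive acute phase proteins with Saa2, 10 neutrophil markers and 4 receptors with Lcn2, and 14 positive acute phase proteins, 7 negative ones, 8 drug and bile genes and 5 hepatocyte markers with Itih4.

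Without the 4 livers that stood apart, Saa2 had 7 genes, Saa3 19 and Itih4 240, with 0 positive acute phase proteins for Saa2, and 1 negative one, 0 drug and bile genes and 0 hepatocyte markers for Itih4. Ranks gave 5, 2 and 274 genes for Saa2, Saa3 and Itih4, with 1 positive acute phase protein for Saa2, and 9 positive and 1 negative, 0 drug and bile genes and 0 hepatocyte markers for Itih4. Residuals on the first array component gave 457 genes for Lcn2, 30 for Saa3 and 1039 for Itih4, with 5 neutrophil markers for Lcn2, and 3 negative acute phase proteins, 0 drug and bile genes and 0 hepatocyte markers for Itih4. Immune scores as covariates gave 62 genes for Lcn2 and 7 for Saa3, with 0 neutrophil markers and 2 receptors for Lcn2. The stretches of animal numbers as a block gave 2 genes for Saa3. Genes at or above the median level gave 2 for Saa3 and 2 neutrophil markers for Lcn2, where fewer such markers are tested.

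Without the 2 livers farthest on the fitted gene, counts were 3 for Saa2, 442 for Saa3 and 784 for Itih4, with 0 positive acute phase proteins for Saa2, and 3 negative ones, 1 drug and bile gene and 0 hepatocyte markers for Itih4. Chosen after seeing the data, leaving out the 3 livers far out on immune scores gave 27 genes for Saa3, and leaving out animal 179 gave 6 genes and 1 positive acute phase protein for Saa2 and 261 genes for Saa3. Beyond the livers left out and the genes no longer tested, the cause of these shifts was not tested. No paired analysis was possible because the labels form 1 group. Low signals limit what can be said of cytokines and neutrophil genes.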
